A study of Mus musculus with 2 samples.

Results

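The genes described here are 9 AP-1 and immediate early genes, taken by symbol from the 24346 gene symbols that each library listed. They are Fos, Fosb and Fosl2 of the FOS family, Jun, Junb and Jund of the JUN family, and Egr1, Atf3 and Ier2. They were chosen by name, with earlier results of these data known, and all 9 were listed in both libraries. RNA-seq was performed on whole omentum, a sheet of abdominal fat with lymphoid clusters called milky spots. The study made 1 library of each genotype, WT and Postn-DTR, both 5 days after an injection of diphtheria toxin (DT) into the peritoneal cavity. Postn-DTR mice are heterozygotes on a C57BL/6 background, in which a human diphtheria toxin receptor was inserted into the first coding exon of Postn. The toxin therefore kills cells that use the Postn promoter, which in the omentum include Aldh1a2+ fibroblastic reticular cells, and the WT mice received the toxin without carrying the receptor. Postn is also used by mesenchymal cells of other organs, so the ablation need not be limited to the omentum. Age, sex and whether the RNA of a library came from 1 mouse or from a pool were not given in the sources used here.

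AP-1 is a family of dimeric transcription factors built from FOS and JUN proteins, which pair through a leucine zipper and bind DNA through an adjoining basic region. FOS proteins need a JUN partner, whereas JUN proteins can also pair with each other, and ATF and MAF proteins can join either. Most of the 9 genes are immediate early genes, whose transcription starts within minutes of growth factors, cytokines, stress or tissue handling, without new protein synthesis, through kinase cascades that act on SRF, ternary complex factors and CREB. Their mRNAs are usually short-lived. In adipose tissue and macrophages, AP-1 is known for control of inflammatory, matrix and proliferation genes.

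The values are FPKM, a fragment count divided by transcript length and by the size of the library, so levels can be compared between genes within a library. Between these libraries a comparison also depends on scaling, because their FPKM totals differed. With 1 library per genotype there was no spread between replicates, no test was possible, and no p-value is given. A change is the log2(FPKM + 1) of Postn-DTR less that of WT, a scale on which genes with low FPKM differ by less than their FPKM ratio, and a gene was counted as higher or lower when this change reached 2-fold. The comparison took in 13127 genes whose FPKM averaged 1 or more over the libraries. Where a ratio is given for a gene, it is the deposited FPKM of Postn-DTR over that of WT.

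The libraries were similar in estimated depth, with about 23300000 and 24100000 fragments behind the FPKM of WT and Postn-DTR. They differed in composition. The sum of all FPKM was 542190 (WT) and 671882 (Postn-DTR), and 31 pancreatic acinar genes made up 12486 and 21.6 of these sums. For Postn, the targeted gene, the FPKM was 58.3 (WT) and 16.2 (Postn-DTR). Because the receptor is inserted into Postn itself, less Postn mRNA from that allele cannot be told apart here from loss of cells. Aldh1a2, which marks the targeted fibroblastic reticular cells, was at 85.5 (WT) and 63.3 (Postn-DTR), a ratio of 0.74. The paper cites earlier reports of Aldh1a2 in omental mesothelial cells and fibroblasts, so its level in whole tissue does not measure the targeted cells alone. Markers of the labelled tissue were present in both libraries, among them the adipocyte genes Adipoq (955.2 and 635.9) and Plin1 (321.5 and 189.1) and the mesothelial gene Upk3b (211.6 and 181.9). In whole tissue, fewer cells of a type and less RNA per cell cannot be told apart.

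All 9 genes were higher in the Postn-DTR library. An increase of any size was found for 51.9% of all genes compared. At least 2-fold higher were 5 of the 9, namely Fos, Egr1, Junb, Ier2 and Jun, where 3.88% of all genes compared were at least 2-fold higher. The other 4, Atf3, Fosl2, Fosb and Jund, were higher by less than 2-fold on this scale, and none of the 9 was lower. The median change was 1.05, against 0.02 over all genes compared, whose changes ran from -0.79 at the 5th percentile to 0.87 at the 95th. Every member had an FPKM of at least 1 in WT as well, so none passed the minimum through the Postn-DTR library alone. Together the 9 genes summed to 205.9 FPKM (WT) and 652.9 FPKM (Postn-DTR), a ratio of 3.17, while the sum over all genes had a ratio of 1.24.

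**Figure D1:**
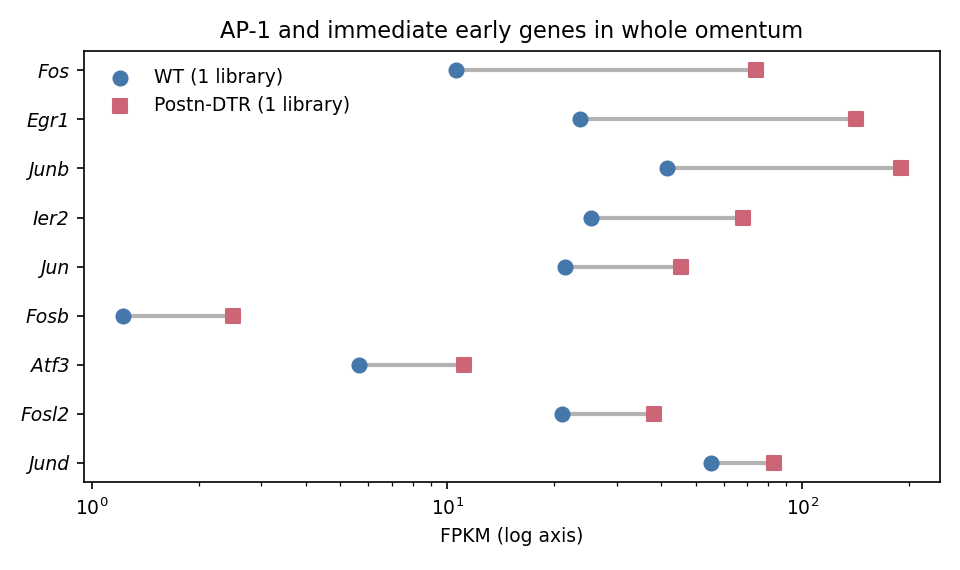
FPKM of each of the 9 genes on a log axis, with a circle for the WT library and a square for the Postn-DTR library, joined by a line. Genes are ordered by their ratio, from Fos (6.96) at the top to Jund (1.501) at the bottom, and every square lies to the right of its circle.

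**Figure D2:**
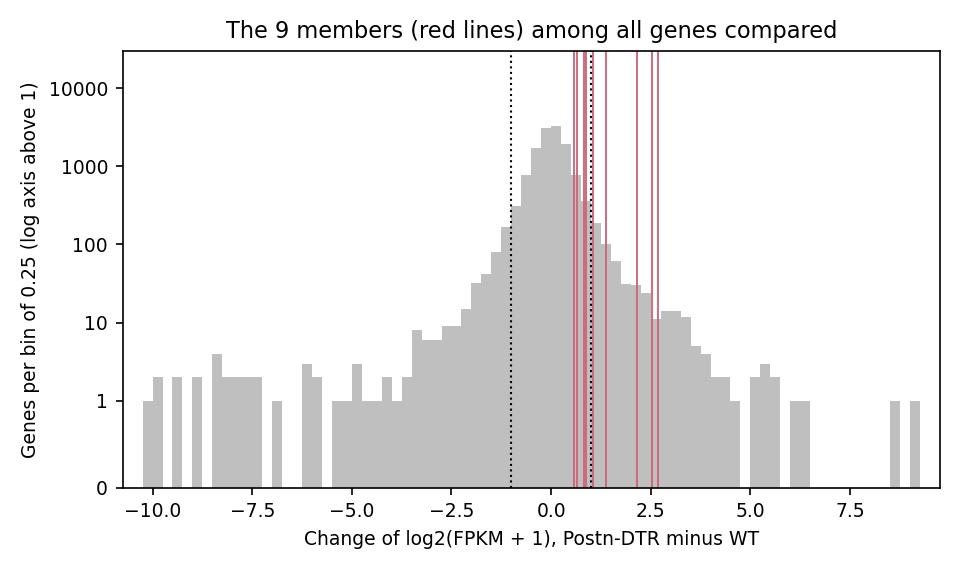
Number of genes per 0.25-wide bin of the change, the log2(FPKM + 1) of Postn-DTR less that of WT, over the 13127 genes compared, on an axis that is logarithmic above 1. Red lines mark the 9 members, from 0.58 to 2.69, and dotted lines mark 2-fold, which 5 of the red lines pass.

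In the FOS family the difference was uneven. Fos, the founding member, measured 10.6 FPKM (WT) and 73.9 FPKM (Postn-DTR), which was 6.96-fold higher with a change of 2.69. This was the largest change of the 9 and ranked 67 among all genes compared. In estimated reads it rested on 467 against 3379, and the 95% counting interval of the ratio was 6.31 to 7.68. These intervals, from an exact conditional binomial calculation on estimated reads, cover counting error only and not the variation between mice. Fosl2, which encodes FRA2, had an FPKM of 21.0 and 38.2, a ratio of 1.82 with an interval of 1.74 to 1.90. Fosb, the least abundant of the 9 in both libraries, had an FPKM of 1.22 and 2.496, or about 102 and 215 estimated reads. Its ratio was 2.04, with an interval of 1.60 to 2.598, but its change on the pseudocount scale was 0.65, because the level was close to the pseudocount of 1. Fosl1, which encodes FRA1 and completes the family, was under the expression minimum at 0.0571 and 0.607.

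The JUN family was more abundant and also unevenly different. Junb, whose product is a weaker activator than JUN in many settings, measured 41.5 FPKM (WT) and 189.2 FPKM (Postn-DTR). It was 4.56-fold higher, with an interval of 4.31 to 4.82 and a change of 2.16, and was the most abundant of the 9 in Postn-DTR. Jun had an FPKM of 21.5 and 45.6, a ratio of 2.12 with an interval of 1.99 to 2.25 and a change of 1.05. It lay close to the 2-fold limit, and its change was 0.72 once acinar genes were left out and the FPKM totals were made equal. Jund, which is known for steady expression in resting cells, was the most abundant of the 9 in WT. It had an FPKM of 55.4 and 83.1, a ratio of 1.501 with an interval of 1.42 to 1.59, and the smallest change of the 9 at 0.58.

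Among the other 3 genes, Egr1 stood nearest to Fos. Egr1, a zinc finger transcription factor of the same early response, measured 23.6 FPKM (WT) and 141.3 FPKM (Postn-DTR), a ratio of 5.98 with an interval of 5.72 to 6.25. Its change of 2.53 ranked 74 among all genes compared. Ier2, which encodes a small nuclear protein, had an FPKM of 25.4 and 68.0, a ratio of 2.68 with an interval of 2.47 to 2.92 and a change of 1.39. Atf3, a stress-induced bZIP protein of the ATF/CREB group that often acts as a repressor, had an FPKM of 5.66 and 11.2. Its ratio of 1.97, with an interval of 1.68 to 2.31, and its change of 0.87 placed it just under the 2-fold limit.

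The order of the levels differed between the libraries. In WT the order from high to low was Jund, Junb, Ier2, Egr1, Jun, Fosl2, Fos, Atf3 and Fosb, and the highest level was 45.2 times the lowest. Ier2 and Egr1, at 25.4 and 23.6, and Jun and Fosl2, at 21.5 and 21.0, were close neighbours, and no spread was available to separate them. In Postn-DTR the order was Junb, Egr1, Jund, Fos, Ier2, Jun, Fosl2, Atf3 and Fosb. Fos thus stood below Jun and Fosl2 in WT and above both in Postn-DTR, while Atf3 and Fosb were lowest in both libraries. Among all 24346 genes listed, ordered from the highest FPKM down, Fos held rank 6909 in WT and rank 1264 in Postn-DTR, Egr1 ranks 3692 and 633, and Junb ranks 2102 and 455.

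Ratios within a library do not depend on how the libraries were scaled to each other. Fos was at 0.494 times the FPKM of Jun in WT and at 1.62 times in Postn-DTR, and Junb was at 0.7496 times the FPKM of Jund in WT and at 2.28 times in Postn-DTR. The ratio of Egr1 to Fos moved less, from 2.23 to 1.91, as did the ratio of Egr1 to Junb, from 0.570 to 0.747. Expressed as shares of the summed FPKM of the FOS family, Fosl2 held 63.9% and Fos 32.2% in WT, whereas Fos held 64.1% and Fosl2 33.2% in Postn-DTR. Within the JUN family, Jund held 46.8% and Junb 35.1% in WT, and Junb held 59.5% and Jund 26.1% in Postn-DTR. The family sums were 32.9 and 115.2 for FOS genes and 118.4 and 317.8 for JUN genes, so JUN transcripts exceeded FOS transcripts 3.59-fold in WT and 2.76-fold in Postn-DTR. Weighted by transcript length, which makes the share one of reads, Fosl2 remained above Fos in Postn-DTR, with 60.1% and 37.4%, because its transcript is longer.

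**Figure D3:**
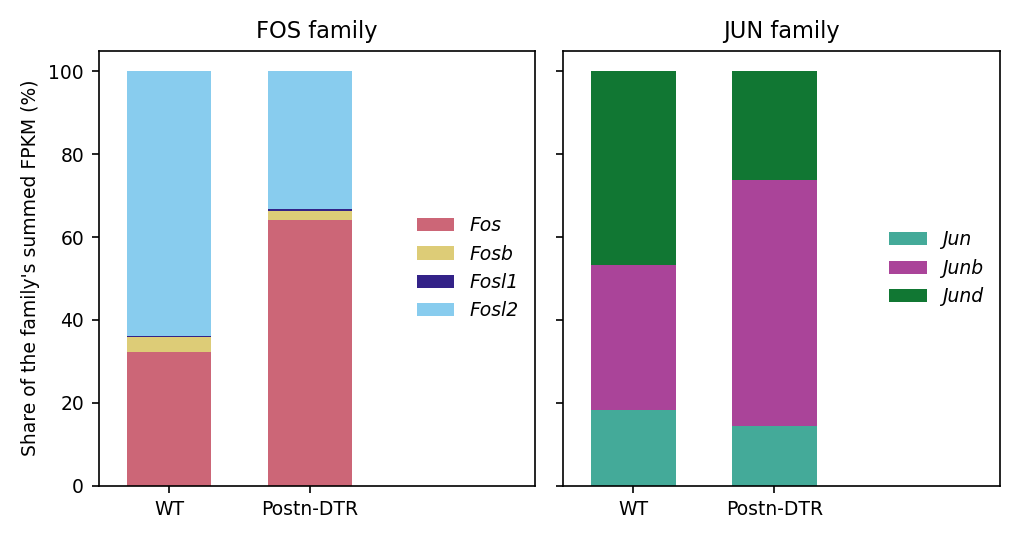
Share of the summed FPKM of the FOS family (left) and the JUN family (right) held by each gene, in percent, in the WT and Postn-DTR libraries. Fos holds 32.2% of its family in WT and 64.1% in Postn-DTR, and Junb 35.1% and 59.5% of its own.

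Most of the 9 gene models have few exons and a short span, which the choice by name did not use. On GRCm38, the 4 genes Jun, Junb, Jund and Ier2 have no intron in their principal transcript, against 1.84% of 12202 compared genes with a coding model. The median number of exons was 2 for the 9 genes and 9 for those genes, and the median gene span was 4235 and 23463 bp. Atf3 was an exception, with a span of 47744 bp, and Fosl2, with 22042 bp, lay near the median of all genes. The transcripts of Fosl2 (6537 bases), Egr1 (4484), Fosb (3782) and Jun (3189) were longer than the median of 2938 bases. Fos (ENSMUSG00000021250) lies on chromosome 12 from 85473890 to 85477273 on the plus strand, Jun (ENSMUSG00000052684) on chromosome 4 from 95049034 to 95052222 on the minus strand, and Egr1 (ENSMUSG00000038418) on chromosome 18 from 34859823 to 34864984 on the plus strand. The 3 genes on chromosome 8 are Jund (70698949 to 70700616, plus strand), Ier2 (84661331 to 84662852, minus strand) and Junb (84974484 to 84978718, minus strand), and 311632 bp separate Ier2 from Junb. The remaining models are Fosb (chromosome 7, 19302696 to 19310051, minus strand), Fosl2 (chromosome 5, 32135801 to 32157842, plus strand) and Atf3 (chromosome 1, 191170296 to 191218039, minus strand). Exons of 3 members overlap an exon of another gene on the opposite strand. These are Junb with Prdx2, Jun with Junos and Jund with Gm11175. Whether the authors counted by strand was not given, so reads of such pairs cannot be told apart, and Prdx2 itself was at 161.5 FPKM in the WT library and 164.7 in the Postn-DTR library.

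The genes next to the members had smaller changes than the member beside them. For each member the nearest compared coding gene on either side that did not overlap it was taken, at distances from 4717 to 505285 bp, which gave 18 genes. Prdx2, which overlaps Junb and had a change of 0.03, was therefore left out. None of the 18 was at least 2-fold higher or lower, and their median change was 0.15, with a range from -0.45 to 0.82. Over all genes 3.88% were at least 2-fold higher and 3.12% at least 2-fold lower, so 0 of 18 is close to these shares. Junb, with a change of 2.16, lies between Rnaseh2a (0.42) and Hook2 (0.43), and Egr1, with 2.53, between Reep2 (0.12) and Etf1 (0.47). The neighbours of Fos were Tmed10 (0.27) and Jdp2 (0.82), the latter a bZIP gene that represses AP-1, and a neighbour of Atf3 was Batf3 (-0.45), another bZIP gene.

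Sequence just upstream of the start site is shown for the 5 members whose RefSeq start lay within 50 bases of a GENCODE coding transcript start, because cyclic AMP response elements, bound by CREB and ATF proteins, are known control sites of early genes. Each line gives the 140 bases before the RefSeq start (GRCm38.p6), 5′ to 3′ on the strand of the gene. Capitals mark, on either strand, the TATA box (TATAAA), the core of the cyclic AMP response element (TGACG), the CCAAT box (CCAAT), the binding site of EGR proteins (GCGNGGGCG) and TGACATCA, a variant element of the Jun promoter that was added after the windows were read. The windows are chr12:85473750-85473889 for Fos, chr8:84978749-84978888 for Junb, chr4:95052223-95052362 for Jun, chr7:19310046-19310185 for Fosb and chr1:191183334-191183473 for Atf3.
Fos: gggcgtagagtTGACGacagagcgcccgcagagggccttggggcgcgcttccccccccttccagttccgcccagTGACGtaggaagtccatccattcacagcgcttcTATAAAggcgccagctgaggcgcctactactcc
Junb: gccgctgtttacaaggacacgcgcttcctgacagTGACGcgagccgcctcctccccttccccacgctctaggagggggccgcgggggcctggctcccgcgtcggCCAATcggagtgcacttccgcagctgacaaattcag
Jun: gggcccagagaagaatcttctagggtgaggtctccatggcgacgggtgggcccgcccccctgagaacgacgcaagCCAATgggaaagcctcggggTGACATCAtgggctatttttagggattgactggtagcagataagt
Fosb: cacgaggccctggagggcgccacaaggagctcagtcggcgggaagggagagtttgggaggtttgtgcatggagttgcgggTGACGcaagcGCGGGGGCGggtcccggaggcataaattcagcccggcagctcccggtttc
Atf3: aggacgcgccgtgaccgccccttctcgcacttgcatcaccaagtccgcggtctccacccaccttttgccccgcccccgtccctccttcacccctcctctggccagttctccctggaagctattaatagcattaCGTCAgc

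Promoter windows, which run from upstream to just past the start, were held for 7 of the 9 members, without Egr1 and Ier2. The core TGACG, which is also part of TGACGTCA, was found in 4 of these 7, Fos, Fosb, Junb and Atf3, and in 20.8% of all 32817 windows of the same length. Fos held 2 copies, starting 129 and 66 bases before its start site, and a TATAAA 33 bases before it. The TATAAA of Junb began at the RefSeq start itself, which is 30 bases before the GENCODE start, and TATAAA was present in 13.6% of all windows. Fosb and Fosl2 held GCGNGGGCG, present in 5.56% of all windows, and Jun, Junb and Atf3 held CCAAT, present in 37.4%. TGACATCA was found in Jun, 45 bases before the start, and in 3.62% of all windows. The full element TGACGTCA, the AP-1 element TGACTCA and the CArG box bound by SRF were found in 0 of the 7, and in 1.79%, 5.20% and 1.63% of all windows. A match describes letters and not a bound site, and a missing match says only that the letters are not in this window. The RefSeq starts of Jund and Fosl2 lay 1210 and 671 bases from the nearest GENCODE coding start, so their windows may not describe the start used here.

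AU-rich elements in the 3′ UTR, bound by ZFP36 and related proteins that shorten mRNA life, were counted as well. The heptamer TATTTAT (T standing for U) was found in the 3′ UTR of 6 of the 9 members and of 27.7% of the 12202 genes, at a median 3′ UTR length of 1186 and 983 bases. Fosl2 held 3 copies and Fos 2, while Fosb, Jun, Jund and Atf3 held 1 each. It was not found in Junb, Egr1 or Ier2. The shorter ATTTA, which is part of the heptamer, had a median of 2 copies in the members and 1 in the 12202 genes. Junb and Egr1 held 2 copies of it each and Ier2 held 0. The stretch of 30 bases richest in ATTTA, in capitals, is shown for Fos and Jun, and that of Jun does not include its TATTTAT.
Fos: acgtttttattgtgttttcaATTTATTTAt
Jun: gtgatcATTTAtaatcataggaaagATTTA

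Other immediate early genes were examined next. Of 15 other early transcription regulators 14 were compared, of which 11 were higher and 5 at least 2-fold higher, with a median change of 0.78. Ier3, which encodes a regulator of cell survival, was at 21.2 FPKM in the WT library and 178.0 in the Postn-DTR library (3.01), Nr4a3, an orphan nuclear receptor gene, at 1.04 and 6.08 (1.80), Klf2, a zinc finger gene, at 96.2 and 246.8 (1.35), and Csrnp1, which encodes a nuclear early response protein, at 8.16 and 21.3 (1.28). With a pseudocount of 5, Nr4a3 (0.88) and Csrnp1 (0.997) were under 2-fold. None of the 14 was at least 2-fold lower. Within the EGR and NR4A families, Egr2 was at 2.42 and 4.78 (0.75), Egr3 at 3.64 and 3.603 and Nr4a2 at 1.18 and 1.54, while Nr4a1, the fifth of the genes at least 2-fold higher, was at 15.6 and 38.6. These 4 were named after their values were seen.

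Early genes that act in feedback or as effectors were similar as a list. Of 20 genes 19 were compared, 16 were higher, 6 of them at least 2-fold, and the median change was 0.78. Gadd45g, a growth arrest gene, was at 12.8 FPKM in the WT library and 101.3 in the Postn-DTR library (2.89), and Dusp1, the phosphatase that switches off MAP kinases, at 42.2 and 227.9 (2.41). Ctgf, a matricellular protein gene, was at 18.2 and 88.2 (2.22), and Zfp36, whose protein binds the AU-rich element counted above, at 68.3 and 278.0 (2.01). Of the other 4 dual-specificity phosphatase genes, Dusp6 was at 31.7 and 21.8, Dusp4 at 6.83 and 5.03 and Dusp2 at 6.97 and 5.68, all lower in Postn-DTR, and Dusp5 was at 7.11 and 7.75. They were named after their values were seen.

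Other bZIP partners of AP-1 differed less. Of 13 genes 12 were compared, 8 were higher and 4 lower, with a median change of 0.34. Maff, a small MAF gene without an activation domain, was the only 1 of the 12 at least 2-fold higher, at 4.97 FPKM in WT and 16.6 in Postn-DTR (1.56). Jdp2 was at 19.6 and 35.3 (0.82) and Mafg, another small MAF gene, at 14.5 and 25.3 (0.76). Over these 3 lists together 45 genes were compared, 12 (26.7%) were at least 2-fold higher and 0 at least 2-fold lower, where the shares over all genes were 3.88% and 3.12%. As no test was possible, these are counts in 1 pair of libraries. The lists were chosen with earlier results of these data known, so setting them beside the shares over all genes is a description only.

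Transcripts of the upstream machinery had a median change near that of all genes, at 0.06 against 0.02. Of 19 genes for MAP kinases, their activators, SRF, its cofactors and CREB, 0 were at least 2-fold higher or lower. Over all genes 3.88% were at least 2-fold higher and 3.12% at least 2-fold lower, so 0 of 19 is close to these shares. Elk4, a ternary complex factor gene with a low level, was at 1.06 FPKM in the WT library and 2.67 in the Postn-DTR library, a ratio of 2.51. Its change of 0.83 was under 2-fold only because its level was close to the pseudocount, and was 1.25 with a pseudocount of 0.1. The related Elk1 was at 6.67 and 4.81 (-0.40) and Elk3 at 20.5 and 15.6 (-0.38). Mkl2, an SRF coactivator gene, was at 6.71 and 8.81 (0.35). Genes for EGR1 corepressors and for turnover of FOS and JUN proteins had a median of 0.06 over 5 genes. The corepressor genes Nab1 (14.2 and 12.3) and Nab2 (20.5 and 17.6) had changes of -0.19 and -0.21, Cops5 (30.9 and 40.9), whose product binds JUN, 0.39, and Fbxw7 (6.53 and 7.83), whose product marks JUN for degradation, 0.23. Changes of this size cannot be separated from scaling, because the median change over all genes moved by -0.30 once acinar genes were left out and totals were equal, and both medians were then below 0, at -0.27 and -0.26.

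**Figure D4:**
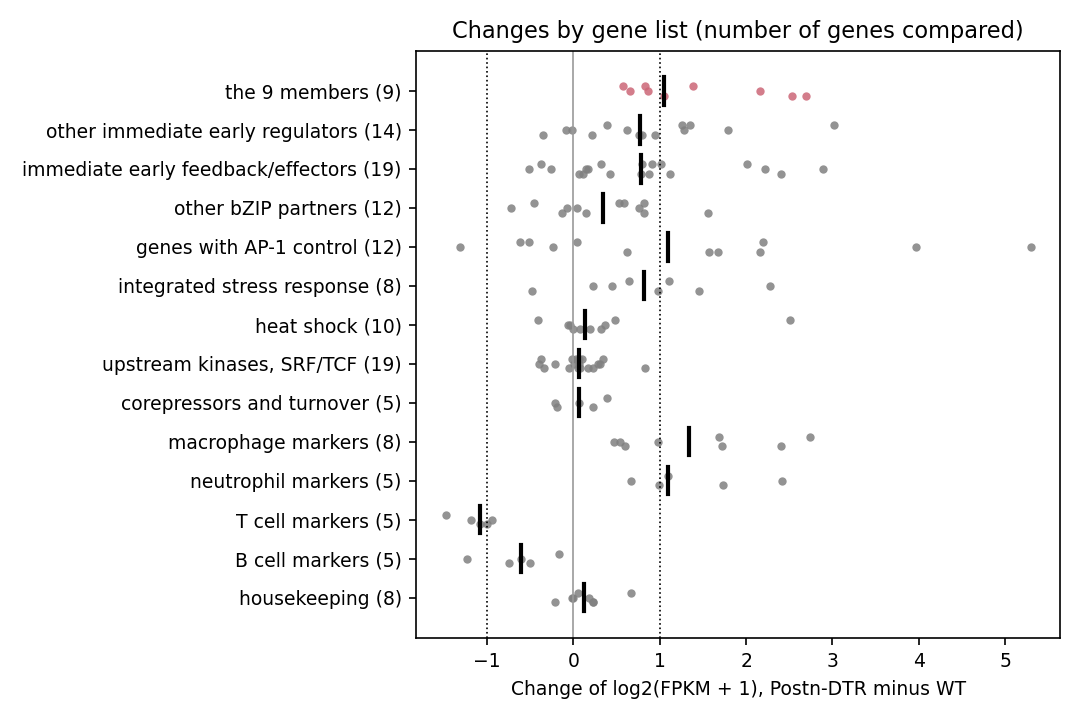
Change, as the log2(FPKM + 1) of Postn-DTR less that of WT, of each compared gene (points) in 14 of the lists, with the list median as a black bar, the number of genes compared in parentheses and dotted lines at 2-fold. The 9 members are in red with a median of 1.05, and the 19 upstream genes lie within 2-fold with a median of 0.06.

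Genes with known AP-1 control differed among themselves. Of 13 genes 12 were compared, 6 were at least 2-fold higher and 1 was at least 2-fold lower, with a median change of 1.09. Spp1, which encodes osteopontin, was at 1.02 FPKM in the WT library and 78.3 in the Postn-DTR library (5.29), Timp1, an inhibitor of matrix metalloproteinases, at 10.5 and 178.7 (3.97), Il6 at 0.436 and 5.58 (2.195) and Hmox1, the heme oxygenase gene, at 57.1 and 259.1 (2.16). Ccnd1, which encodes cyclin D1, was lower, at 34.8 and 13.4 (-1.32). Il6 averaged 1 FPKM only through the Postn-DTR library, so its call follows in part from the minimum, and its change was 0.96 with a pseudocount of 5. The median rested on few genes, being 0.33 over genes that averaged 10 FPKM or more.

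Stress lists were compared because Atf3 and other members respond to stress. Of 8 integrated stress response genes 7 were higher and 3 at least 2-fold higher, with a median change of 0.81. Ddit4, an inhibitor of mTOR signalling, was at 34.7 FPKM in the WT library and 172.5 in the Postn-DTR library (2.28), Chac1, a glutathione-degrading enzyme gene, at 2.603 and 8.86 (1.45), Ppp1r15a, which encodes GADD34, at 12.3 and 27.6 (1.10) and Sesn2, a sestrin gene, at 6.65 and 14.1 (0.98). With a pseudocount of 5, Chac1 (0.87) and Ppp1r15a (0.91) were under 2-fold, and with a pseudocount of 0.1 Sesn2 (1.07) passed it. Of 10 heat shock genes 1 was at least 2-fold higher, and their median was 0.13. This was Hspb1, which encodes HSP27, at 197.3 and 1127 (2.51), while Bag3 (0.48), Hspa8 (0.36) and Hsph1 (-0.41) stayed within 2-fold. The strongly heat-inducible genes Hspa1a, at 2.63 and 2.81, and Hspa1b, at 3.998 and 3.87, had changes of 0.07 and -0.04. They are near-identical copies whose separate values are uncertain, and were named after their values were seen. The time from death to lysis was not given in the sources used here, and its part in the levels was not tested.

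Among leukocyte markers, those of macrophages and neutrophils were higher in Postn-DTR, like the 9 genes, and those of lymphocytes were lower. All 8 macrophage markers were higher, 4 of them at least 2-fold, with a median change of 1.33, and their summed FPKM was 2878 in WT and 4819 in Postn-DTR. Of the defining genes, Adgre1 was at 41.1 and 137.6, Cd68 at 113.8 and 369.4 and Csf1r at 158.3 and 219.1. Of 6 neutrophil markers 5 were listed, without Ly6g, and all 5 were higher, 3 of them at least 2-fold, with a summed FPKM of 346.4 and 680.5. S100a8 was at 169.7 and 338.6, S100a9 at 156.6 and 249.3 and Cxcr2 at 0.514 and 4.03. Cxcr2 averaged 1 FPKM only through the Postn-DTR library, and its change was 1.73, or 0.71 with a pseudocount of 5. Lymphocyte markers went the other way, with all 5 T cell genes lower, 4 of them at least 2-fold, summing to 60.5 and 24.5, and all 5 B cell genes lower, summing to 450.8 and 328.9. Among the T cell genes Cd8a, at 2.81 and 0.897, was above 1 FPKM in WT alone. With a pseudocount of 5 the 4 T cell genes called lower were within 2-fold, from -0.40 for Cd8a to -0.95 for Cd4. No marker of these 4 lists was at 0 in either library. In the study's cell counts of the omentum 5 days after DT, macrophage numbers were not altered, whereas T cells, conventional B cells and leukocytes as a whole were fewer. Those are numbers of cells, while FPKM is relative to all RNA of a library, so they need not move together. Leukocytes are known to use AP-1 genes, and the part of these markers' cells in the higher levels of the 9 genes was not tested.

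Markers of the other cell types of the omentum had medians nearer to 0. The median change was -0.37 over 6 adipocyte genes, 0.30 over 6 mesothelial genes, -0.21 over 5 endothelial genes, -0.13 over 6 fibroblast genes and 0.12 over 8 housekeeping genes. Past 2-fold was 1 of these 31 genes, the mesothelial gene Lrrn4, lower at 62.7 in WT and 29.2 in Postn-DTR. Over all genes 3.88% were at least 2-fold higher and 3.12% at least 2-fold lower. Lrrn4 went against most of its list, where 4 of the 6 mesothelial genes were higher and 2 lower. Upk1b (0.92) and Msln (0.85) were the highest of them. Of the 6 adipocyte genes 4 were lower and 2 higher, with Fabp4 at 4879 in WT and 6519 in Postn-DTR (0.42). The summed FPKM of the 6 was 6970 in WT and 8095 in Postn-DTR. The adipocyte gene Lipe, with a change of -0.997, was at the limit and passed it under 4 alternatives, by -1.34 without acinar genes and at equal totals. Under that scaling Plin1 (-1.10), the endothelial gene Kdr (-1.01) and the collagen gene Col3a1 (-1.20) were also at least 2-fold lower.

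The direction of the 9 genes was the same in all 61 combinations of a gene and an alternative setting that could be computed. Settings that alter only the minimum leave the change of a gene as it was, so their part of the 61 was fixed in advance. All settings use the same libraries and say nothing about variation between mice. Fos stayed between 2.34 and 2.79, Egr1 between 2.195 and 2.57, Junb between 1.82 and 2.19 and Ier2 between 1.05 and 1.42, so these 4 were at least 2-fold higher throughout. Without acinar genes and at equal totals, 9 of the 9 were still higher, where 22.6% of all genes were, and 4 of the 9 were at least 2-fold higher, where 2.33% of all genes were. The calls over all genes, 509 higher and 410 lower, became 306 higher and 789 lower under that scaling. At 1.5-fold, 8 of the 9 were counted as higher, against 9.86% of all genes, and at 3-fold 3 of the 9, Fos, Egr1 and Junb, against 1.52%.

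**Figure D5:**
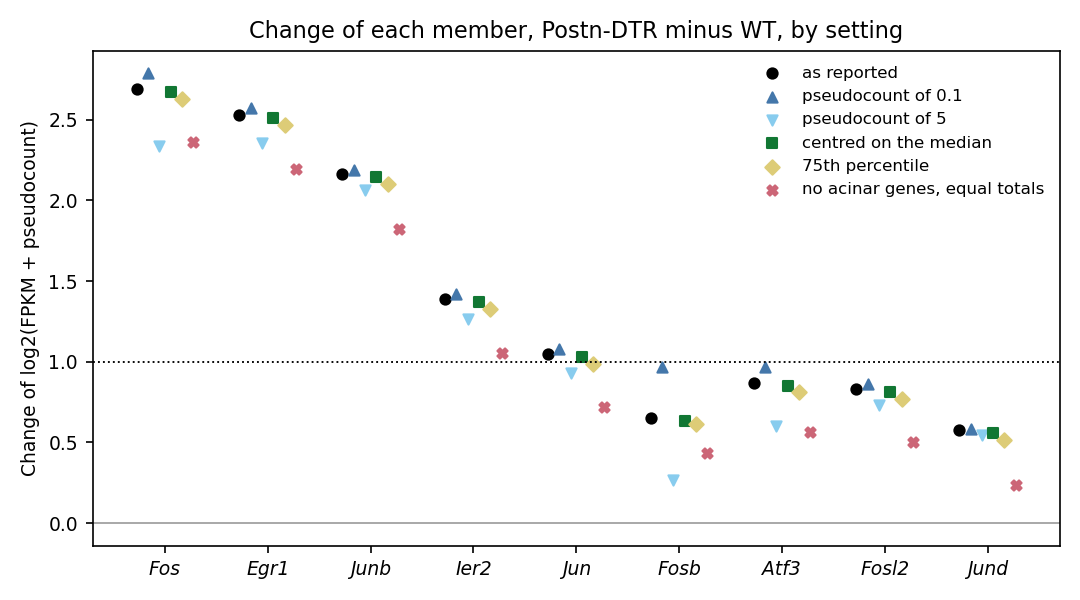
Change of each of the 9 genes, Postn-DTR minus WT, under the reported setting and 5 alternative pseudocounts or scalings, with a dotted line at 2-fold. Fos, Egr1, Junb and Ier2 stay above the line under every setting drawn, and Jun lies on both sides of it, from 0.72 to 1.08.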

How the data were processed

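RNA-seq of whole omentum was available for 2 samples, 1 WT and 1 Postn-DTR, grouped by their genotype labels. Per the labels, miRNeasy columns were used for RNA and the TruSeq stranded mRNA kit for sequencing libraries. The authors deposited FPKM, with 1 value per gene symbol. The submitters' processing notes name TopHat2 2.1.1, Bowtie2 2.2.8, SAMtools 0.1.18, Cuffdiff 2.2.1 and the build mm10. The annotation and the strand setting were not given in the sources used here. The sequencing described in the study's methods is for sorted cells and another library kit, so its read length was not taken for these libraries.

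From the FPKM, log2(FPKM + 1) was compared with numpy 2.4.6 and pandas 2.3.3 over genes averaging 1 FPKM or more, with calls at 2-fold. The calculation was checked on simulated data with raised levels, little noise and changes set well past 2-fold. Recovery was assured there, so the check says nothing about low levels, composition or variation between mice. The members and the 18 other gene lists were chosen with earlier results of these data known. Named genes were the 9 members, up to 4 genes per list with the largest change, and genes past 2-fold against their list's median. Some genes that meet this rule are not reported here. Genes named outside this rule are identified as such or stand as defining markers, neighbours or whole-library values. Alternatives were pseudocounts of 0.1 and 5, no minimum, a minimum average of 10 FPKM, 3 scalings and thresholds of 1.5-fold and 3-fold.

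Depth was estimated from low values. In 366 WT genes and 328 Postn-DTR genes with a single annotated transcript, 76.2% and 78.7% of values lay within 0.1 of a whole read at denominators of about 23300000 and 24100000 fragments and a transcript length reduced by 220 and 210 bp. The denominators were chosen to give whole reads, so these shares are no independent check. At these depths 1 read in a transcript of 2 kb is about 0.0241 and 0.0232 FPKM. Estimated reads of members rest on the length of the principal transcript, and their intervals (scipy 1.17.1) cover counting error only.

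Gene models and transcripts came from GENCODE M21 (GRCm38) and promoter windows from RefSeq (GRCm38.p6); neither need be the one behind the FPKM. Protein sequences were not used here, and protein identity was not computed.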

Additional observations from a re-analysis of the deposited data

How the results depend on the processing

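Each genotype had 1 library, so leaving out a replicate was not done. Depth limits mainly Fosb and Atf3, with the fewest estimated reads. No paired analysis was possible because the labels give no replicate numbers and each group holds 1 sample.

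Over all genes, the 410 lower and 509 higher became 643 and 642 at pseudocount 0.1, 168 and 287 at pseudocount 5, 173 and 303 over genes averaging 10 FPKM or more, 789 and 306 with acinar genes removed and equal totals, 1160 and 1294 at 1.5-fold, and 153 and 199 at 3-fold. Higher thresholds, minimums and pseudocounts lower a count by construction. Of the 9 members 5 were at least 2-fold higher, 8 at 1.5-fold and 3 at 3-fold.

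The median change of the members, which is that of Jun, went from 1.05 to 0.93 with a pseudocount of 5, 0.99 under 75th percentile scaling and 0.72 once totals were equal. With a pseudocount of 5 the medians of genes with AP-1 control, neutrophil markers and T cell markers were 0.71, 0.82 and -0.80. The median of genes with AP-1 control was 0.62 without a minimum and 0.33 over genes averaging 10 FPKM or more, where that of corepressors and turnover genes was -0.063. Scaling to the 75th percentile put the upstream genes at -0.0017. Equal totals put the upstream genes at -0.27, corepressors and turnover genes at -0.26, genes with AP-1 control at 0.77, heat shock genes at -0.17, macrophage markers at 0.999, neutrophil markers at 0.79, mesothelial markers at -0.034 and housekeeping genes at -0.21. Combinations of an alternative with a single gene, or with the count of members higher by any amount, numbered 564. Of these, 531 kept direction and side of the 2-fold limit, 18 lost the call, 10 gained it, 5 within 2-fold changed sign, and 0 called values changed sign. The 531 include the combinations with that count, to which the 2-fold limit does not apply. Alternatives that alter only the minimum leave the change of a single gene as it was, so those combinations were fixed in advance. Weighting by transcript length moved the FOS family share of Fosl2 to 83.5% in WT and 60.1% in Postn-DTR.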
